A study of Mus musculus with 16 samples.

Results

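Microglia are the resident macrophages of brain tissue, and 10 of the genes by which they are usually recognised were followed through RNA-seq of mouse primary neuronal cultures. The genes were *Aif1*, *Csf1r*, *Cx3cr1*, *P2ry12*, *Tmem119*, *C1qa*, *C1qb*, *C1qc*, *Trem2* and *Tyrobp*. They were chosen by name from 53679 gene symbols in the expression table, and all 10 were found there. The level of a gene is the sum of the FPKM (fragments per kilobase, relative to the mapped reads) of its isoforms.

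The cultures were primary cortical neurons from the cortex of wild-type mouse embryos at embryonic day 15, kept in neurobasal medium with B27. On day in vitro 8 they received 10 μM tianeptine (TIA), an atypical antidepressant, or vehicle, and 24 h later they underwent 3 h of oxygen-glucose deprivation (OGD) or a sham procedure. RNA was taken after 6 h of reoxygenation. The groups were CONTROL-VEH (vehicle, sham; cultures 1 to 4), CONTROL-TIA (TIA, sham; 5 to 8), OGD-VEH (vehicle, OGD; 9 to 12) and OGD-TIA (TIA, OGD; 13 to 16). The methods of the study call the 4 cultures of a group biological replicates, but the labels do not say whether they came from separate preparations, so the p-values measure the spread between these cultures. The comparisons address what OGD did to these genes, and whether TIA altered that or acted without OGD.

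Microglia enter the brain from the yolk sac early in embryonic life and depend on signalling through CSF1R, whose ligands are CSF1 and IL-34. Neurons speak to them through CX3CL1, the ligand of CX3CR1, and through nucleotides sensed by P2RY12. Microglia are also the main source of the C1q chains of complement in the brain, and TREM2 signals through the adaptor TYROBP when they take up debris. A cortical culture grown for neurons in a serum-free supplement usually holds few of them.

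The microglia markers were close to the limit of detection in every culture. Of the 10 genes, 9 had a mean under 0.5 FPKM over the 16 cultures, and their means ranged from 0.00369 FPKM for *Cx3cr1* to 0.127 FPKM for *Tyrobp*. Only *Aif1* was above that line, with a mean of 1.03 FPKM. The median over 21848 protein-coding genes was 3.38 FPKM, and 60.5% of them had a mean of at least 0.5 FPKM. *Cx3cr1* stood above 16.7% of the protein-coding genes and *Aif1* above 43.1%.

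In reads, the deposited values correspond to very small numbers. The FPKM that a single read gives was estimated from genes with a single isoform, which put the scale of the cultures at 22.8 to 29.8 M reads (median 26.8 M). The labels state 18 to 23 M aligned reads per culture, so the read numbers may be overstated. Between 70.6% and 77.9% of low values then lay within 0.15 of a whole read, so all read numbers given here are approximate and carry no counting intervals. The 10 genes together amounted to 11.3 to 42.6 reads per culture, or 0.45 to 1.67 per M reads. Without *Aif1*, *Csf1r* and *P2ry12*, the other 7 genes together amounted to 1.0 to 18.5 reads per culture. Genes used in every cell, among them *Actb* and *Hprt*, were above 0 in all cultures, with *Hprt* between 36.0 and 69.2 FPKM.

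**Figure D1:**
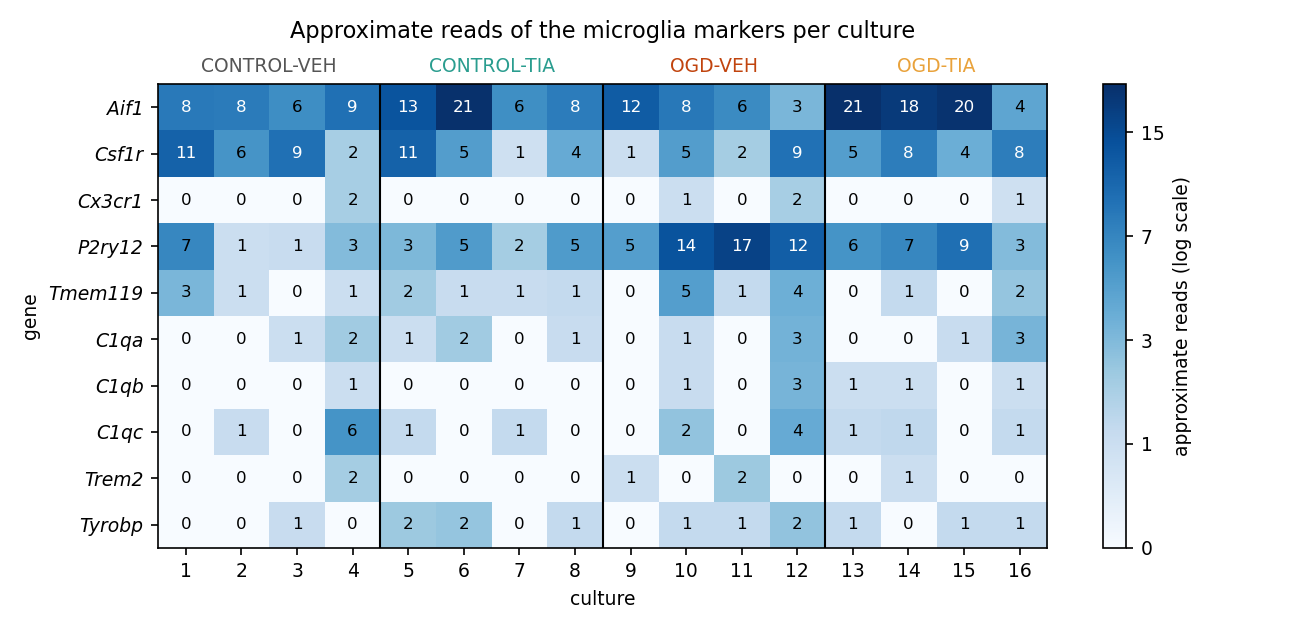
Approximate reads of each microglia marker (rows) in each of the 16 cultures (columns, 4 per group), with darker blue for more reads on a log colour scale. *Aif1*, *Csf1r* and *P2ry12* have reads in every culture, whereas *Cx3cr1* and *Trem2* are at 0 in 12 of 16.

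The markers of the other cell types place these values. The 15 neuronal markers had a median of 110 FPKM over genes, the 10 astrocyte markers 44.7 FPKM and the 10 markers of the oligodendrocyte lineage 9.17 FPKM, against 0.0517 FPKM for the microglia markers. The 3 highest were *Tubb3*, *Stmn2* and *Map2* for neurons, *Aldoc*, *Slc1a3* and *Aldh1l1* for astrocytes, and *Olig1*, *Olig2* and *Pdgfra* for the oligodendrocyte lineage. The label of the samples, primary cortical neurons, therefore matches their leading markers, and astrocyte and oligodendrocyte progenitor transcripts were present as well. Endothelial markers (*Esam*, *Pecam1* and *Flt1* highest) had a median of 0.0788 FPKM, and markers of mural cells and fibroblasts (*Dcn*, *Pdgfrb* and *Col1a1* highest) 0.271 FPKM. The 9 markers of border-associated macrophages, led by *Stab1*, *Folr2* and *Pf4*, had a median of 0.0534 FPKM, and none reached 0.5 FPKM. Of 16 genes of blood leucocytes and erythroid cells, 5 were at 0 in all cultures, and the highest were the globins *Hba-a2* and *Hba-a1*, followed by *Cd79a*. In bulk RNA, fewer cells of a type and less RNA per cell cannot be told apart.

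**Figure D2:**
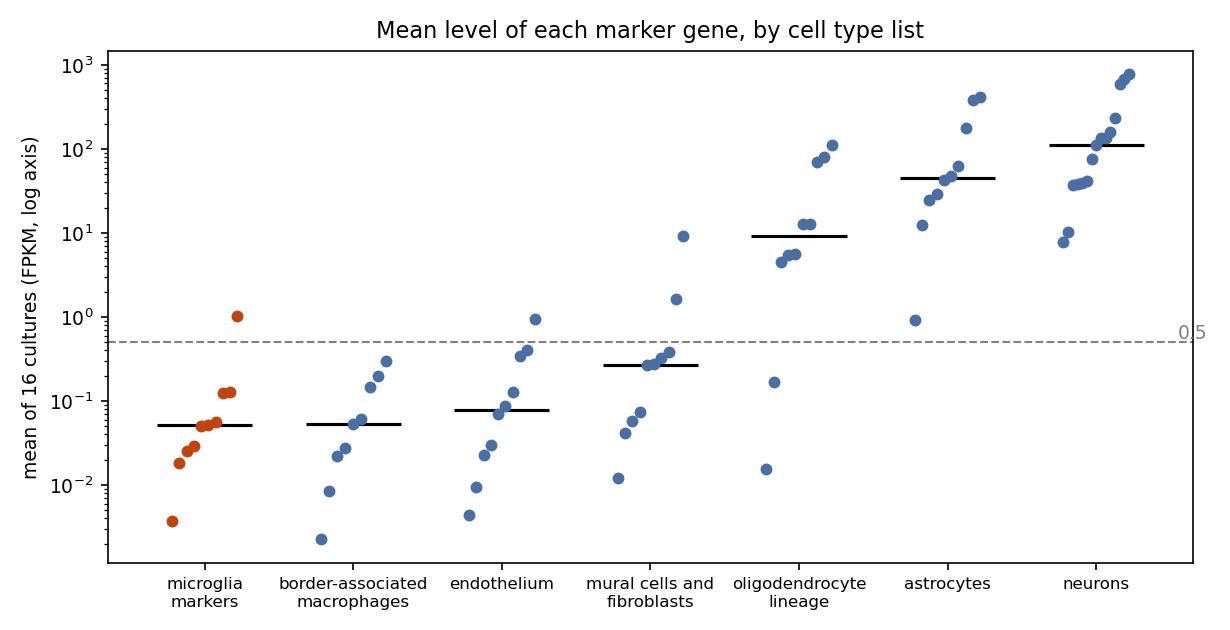
Mean over 16 cultures of each marker gene (points, FPKM on a log axis), by cell type list, with the median of each list as a black line and 0.5 FPKM as a dashed line. The medians rise from 0.0517 FPKM for the microglia markers to 110 FPKM for the neuronal markers.

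*P2ry12* encodes the ADP receptor through which microglial processes turn toward injured cells, and it was the microglia marker nearest to a change with OGD. It lies on chromosome 3 (GRCm38, 59216272 to 59262871, minus strand). In CONTROL-VEH it was measured at 0.136, 0.049, 0.042 and 0.061 FPKM, and in OGD-VEH at 0.111, 0.258, 0.328 and 0.240 FPKM. The lowest OGD-VEH culture, culture 9, was below the highest CONTROL-VEH culture, so the groups overlapped. In reads this was 11.9 over the 4 CONTROL-VEH cultures and 46.8 over the 4 OGD-VEH cultures.

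In CONTROL-TIA, *P2ry12* was at 0.057, 0.095, 0.041 and 0.087 FPKM, and in OGD-TIA at 0.109, 0.122, 0.180 and 0.056 FPKM. The group means were 0.072 ± 0.0434 (CONTROL-VEH), 0.070 ± 0.0253 (CONTROL-TIA), 0.234 ± 0.0905 (OGD-VEH) and 0.117 ± 0.0509 FPKM (OGD-TIA; SD, n = 4 each). The log2 fold change between OGD-VEH and CONTROL-VEH was 0.94 (SE 0.29, 95% interval 0.28 to 1.61), with an unadjusted p of 0.0111 and a padj of 0.121 by limma. It was therefore not called, and the two-sided exact permutation test gave p = 0.0571. Between OGD-TIA and CONTROL-TIA it was 0.33 (SE 0.22, padj 0.559), and between OGD-TIA and OGD-VEH it was -0.61 (SE 0.29, padj 0.701).

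The call on *P2ry12* depended on the cultures used and on the processing. Without OGD-VEH culture 9 the log2 fold change was 1.15 and padj 0.0318, and with array quality weights it was 1.09 and padj 0.0378, both past the thresholds. Over all genes without a filter, 1994 of 32115 and 1605 of 32532 were called in the same fits. With all 16 cultures in one fit the padj of *P2ry12* was 0.0310, but its log2 fold change of 0.94 fell short of 1. Weighting its isoforms by length gave 1.16 with a padj of 0.0791, again not called. All fold changes here are on the scale of log2(FPKM + 0.1), which understates changes of genes this low. *P2ry12* lies within *Med12l*, a gene of the Mediator complex on the opposite strand, with which it shares 9 exonic bases. *Med12l* was at 4.58 ± 0.262 FPKM in CONTROL-VEH, against 3.27 ± 0.447 FPKM after OGD-VEH (SD, n = 4). Whether reads of *Med12l* contributed to *P2ry12* was not tested, and the sources used here do not state whether strand was used in counting.

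*Csf1r*, the receptor without whose signal microglia die, was detected in all 16 cultures at a very low level. It is a gene of chromosome 18, and it was at 0.113, 0.063, 0.093 and 0.019 FPKM in CONTROL-VEH, and OGD-VEH gave 0.011, 0.050, 0.020 and 0.095 FPKM. It was at 0.107, 0.046, 0.009 and 0.034 FPKM in CONTROL-TIA and at 0.046, 0.070, 0.035 and 0.077 FPKM in OGD-TIA. The ranges of all groups overlapped, with high and low cultures in each. The log2 fold change between OGD-VEH and CONTROL-VEH was -0.26 (SE 0.25, 95% interval -0.83 to 0.32, padj 0.567). The gene shares 873 exonic bases with *Hmgxb3* on the opposite strand, which was at 9.30 to 12.7 FPKM in all cultures. The part of *Hmgxb3* in the reads of *Csf1r* was not tested.

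*Cx3cr1*, the fractalkine receptor, was the lowest of the microglia markers. It was listed at 0 in 12 of 16 cultures, and the others were 0.018 FPKM in CONTROL-VEH culture 4, 0.011 and 0.020 FPKM in OGD-VEH cultures 10 and 12, and 0.010 FPKM in OGD-TIA culture 16. Each of these is worth 0.9 to 1.9 reads. *Tmem119*, a membrane protein that separates microglia from other macrophages, was at 0 to 0.062 FPKM in CONTROL-VEH, 0.020 to 0.039 FPKM in CONTROL-TIA, 0 to 0.095 FPKM in OGD-VEH and 0 to 0.045 FPKM in OGD-TIA. It was above 0 in 12 of 16 cultures, never with more than 4.8 reads.

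**Figure D3:**
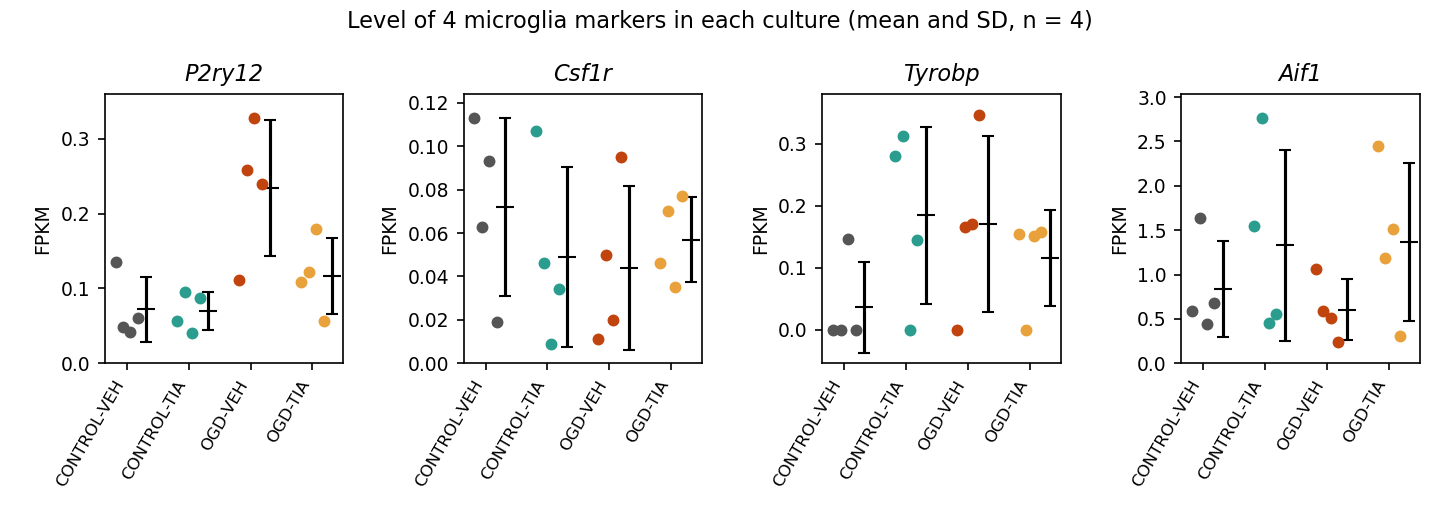
FPKM of *P2ry12*, *Csf1r*, *Tyrobp* and *Aif1* in each culture (points), by group, with the mean and SD of each group (n = 4) beside them. The *P2ry12* points of OGD-VEH reach from 0.111 to 0.328 FPKM, and the lowest of them lies within the range of CONTROL-VEH.

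The C1q chains, which assemble into the first component of the classical complement pathway, lie side by side on the minus strand of chromosome 4 (*C1qb* at 136880129 to 136886187, *C1qc* at 136889804 to 136893065 and *C1qa* at 136895917 to 136898803). *C1qa* was at 0, 0, 0.049 and 0.111 FPKM in CONTROL-VEH, and OGD-VEH gave 0, 0.058, 0 and 0.179 FPKM. *C1qc* was at 0, 0.054, 0 and 0.253 FPKM in CONTROL-VEH, and OGD-VEH gave 0, 0.109, 0 and 0.168 FPKM. *C1qb* was at 0, 0, 0 and 0.051 FPKM in CONTROL-VEH, and OGD-VEH gave 0, 0.053, 0 and 0.162 FPKM. In each of these groups some cultures had no C1q reads at all, and the values above 0 came mainly from CONTROL-VEH culture 4 and OGD-VEH cultures 10 and 12.

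With TIA, the C1q chains stayed in the same low range. *C1qa* was at 0.047, 0.103, 0 and 0.049 FPKM in CONTROL-TIA and at 0, 0, 0.053 and 0.166 FPKM in OGD-TIA. *C1qc* was at 0.054, 0, 0.053 and 0 FPKM in CONTROL-TIA and at 0.050, 0.047, 0 and 0.051 FPKM in OGD-TIA. *C1qb* was listed at 0 in all 4 CONTROL-TIA cultures and was at 0.048, 0.042, 0 and 0.049 FPKM in OGD-TIA, where each value above 0 is worth 1.0 read. Its difference between OGD-TIA and CONTROL-TIA had an unadjusted p of 0.0186 and a padj of 0.292 by limma, so it was not called. No fold is given in the text against a group at 0. The exact permutation p was 0.143. Over all 3 chains, the cultures held 0 to 10.5 reads.

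Of the 10 genes, 6 had their promoter searched (*Aif1*, *C1qb*, *C1qc*, *Cx3cr1*, *P2ry12* and *Trem2*), a window from 250 bases before to 50 bases after the start. *Tmem119*, *C1qa* and *Tyrobp* had no entry in the RefSeq table used here, and *Csf1r* was not searched. The search was on both strands for GAGGAAGT, a core to which PU.1 binds, the factor that directs macrophage development and is encoded by *Spi1*. These letters were found in 1 of the 6 promoters, that of *C1qc*, and in 3.20% of 32851 promoters in all. The bases upstream of *C1qc* are shown because they were the single match among the markers, with the motif in capitals as it reads on the gene's strand (GRCm38.p6, chr4:136893066-136893164, minus strand):
C1qc: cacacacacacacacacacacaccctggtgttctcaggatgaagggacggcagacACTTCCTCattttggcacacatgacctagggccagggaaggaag
The match ends 36 bases before the annotated start of the gene. *Spi1* itself was listed at 0 in 13 of 16 cultures, and was at 0.021 FPKM in CONTROL-TIA culture 6, 0.248 FPKM in OGD-VEH culture 10 and 0.687 FPKM in OGD-TIA culture 14.

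*Trem2*, the receptor for lipids and debris on chromosome 17 (48346401 to 48354147, plus strand), was listed at 0 in 12 of 16 cultures. The others were 0.099 FPKM in CONTROL-VEH culture 4, 0.045 and 0.114 FPKM in OGD-VEH cultures 9 and 11, and 0.033 FPKM in OGD-TIA culture 14, each worth 1.0 to 2.2 reads. *Tyrobp*, its adaptor, lies on chromosome 7 (30413760 to 30417585, plus strand) and has isoforms so short that a single read on the longest is worth 0.113 to 0.147 FPKM. It was at 0, 0, 0.146 and 0 FPKM in CONTROL-VEH, at 0.280, 0.312, 0 and 0.145 FPKM in CONTROL-TIA, at 0, 0.166, 0.171 and 0.346 FPKM in OGD-VEH and at 0.154, 0, 0.151 and 0.158 FPKM in OGD-TIA. No culture held more than 2.5 reads of it. Its log2 fold change was 0.93 (SE 0.50, padj 0.326) between OGD-VEH and CONTROL-VEH and 0.99 (SE 0.51, padj 0.937) between CONTROL-TIA and CONTROL-VEH, neither of which was called.

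*Aif1* encodes IBA1, the calcium-binding protein that is stained to show microglia, and lies on chromosome 17 (35170991 to 35176068, minus strand). It was at 0.590, 1.641, 0.447 and 0.674 FPKM in CONTROL-VEH, and OGD-VEH gave 1.065, 0.594, 0.514 and 0.242 FPKM. With TIA it was at 1.549, 2.764, 0.449 and 0.557 FPKM in CONTROL-TIA and at 2.452, 1.189, 1.516 and 0.308 FPKM in OGD-TIA. Both TIA groups thus held a culture above every vehicle culture and a culture near the lowest. The log2 fold change was -0.40 (SE 0.49, padj 0.593) between OGD-VEH and CONTROL-VEH, 0.44 (SE 0.59, padj 0.999) between CONTROL-TIA and CONTROL-VEH, and 0.92 (SE 0.60, padj 0.558) between OGD-TIA and OGD-VEH.

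The higher FPKM of *Aif1* rested on few reads. It held 3.2 to 21.1 reads per culture, spread over 7 isoforms. Of these, 2 are shorter than 500 bases and give a high FPKM per read, but they held a median of only 0.223% of the *Aif1* FPKM. Their share ranged from 0% to 85.7% in single cultures. A median of 33.6% of *Aif1* reads, and between 2.39% and 100% in single cultures, lay on isoforms annotated as not coding. *Aif1* made up a median of 69.1% of the summed FPKM of the 10 genes, with a range of 15.9% to 89.7%, so the sum follows it. The sum was 1.20 ± 0.475 FPKM in CONTROL-VEH, 1.74 ± 1.26 in CONTROL-TIA, 1.33 ± 0.160 in OGD-VEH and 1.81 ± 0.815 in OGD-TIA (SD, n = 4). Without *Aif1* it was 0.366 ± 0.189, 0.406 ± 0.219, 0.727 ± 0.459 and 0.443 ± 0.119 FPKM in the same order. In OGD-VEH the sum without *Aif1* reached from 0.167 FPKM in culture 9 to 1.28 FPKM in culture 12, a range that held all other cultures except CONTROL-TIA culture 7, at 0.126 FPKM.

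Detection of all 3 C1q chains together coincided with that of *Cx3cr1*. At least 1 chain was above 0 in 13 of 16 cultures, of which 9 had *Cx3cr1* at 0. All 3 chains were above 0 in 4 of 16 cultures, which were CONTROL-VEH culture 4, OGD-VEH cultures 10 and 12 and OGD-TIA culture 16. These were also the cultures in which *Cx3cr1* was above 0, and each had 9 of the 10 markers above 0, against 4 to 7 in the other cultures. The marker missing was *Tyrobp* in culture 4 and *Trem2* in the other three. Over the 16 cultures the Pearson correlation of log2(FPKM + 0.1) was 0.84 between *Cx3cr1* and *C1qb* and 0.85 between *Cx3cr1* and *C1qc*, whereas that between *Cx3cr1* and *Aif1* was -0.52. Across all 45 pairs of the 10 genes the median was 0.17, with a range of -0.52 to 0.85. These correlations are descriptions over 16 libraries with most values at 0 to 4 reads. The same 4 cultures also had the highest summed astrocyte markers, at 1500 to 2730 FPKM against 705 to 1360 FPKM in the other 12, and the part of this in the joint detection was not tested.

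None of the 10 microglia markers was called in any comparison. A gene was called where limma gave padj ≤ 0.05 with a log2 fold change ≥ 1 or ≤ -1. *Aif1* alone passed the filter of a mean of 0.5 FPKM over the cultures compared, and the other 9 were read from the fit without a filter. Between OGD-VEH and CONTROL-VEH, 4.09% of 16346 genes past the filter were called, and 0.111% of 32532 genes without it. Against such a background, 0 of 10 is not a result about these genes. At an unadjusted p under 0.05 there was 1 marker, *P2ry12*, beside 5729 of 16346 genes past the filter and 6977 of 32532 without it.

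The other comparisons gave few calls over all genes as well. Between OGD-TIA and CONTROL-TIA, 0% of 16242 genes past the filter and 0.0213% of 32830 without it were called. There, 1 marker, *C1qb*, had an unadjusted p under 0.05, beside 3174 of 16242 genes past the filter and 4240 of 32830 without it. The shares called were 0% and 0.0123% between CONTROL-TIA and CONTROL-VEH and 0% and 0.0122% between OGD-TIA and OGD-VEH. For the interaction (how far TIA changed the OGD effect) they were 0% and 0.00849%. In these 3, 0 markers had an unadjusted p under 0.05. Past the filter, 621 of 16170, 1293 of 16351 and 988 of 16313 genes did, in the same order. Without it, where all markers but *Aif1* were read, 1128 of 32552, 1873 of 32672 and 1640 of 35341 genes did. At such rates, finding 0 among so few markers is not a result about these genes.

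The median log2 fold change of the 10 markers was 0.14 between OGD-VEH and CONTROL-VEH, beside 0.10 over all genes past the filter and 0.04 over all genes without it. It was 0.10 between OGD-TIA and CONTROL-TIA (0.04 and 0.01 over all genes), -0.03 between CONTROL-TIA and CONTROL-VEH (-0.01 and 0.002) and -0.14 between OGD-TIA and OGD-VEH (-0.05 and -0.03). The intervals were wide, and between OGD-VEH and CONTROL-VEH that of 5 markers reached above 1. An increase of 2-fold on this scale was therefore not excluded by the interval of *P2ry12*, *Tyrobp*, *C1qa*, *C1qb* or *C1qc*. For the other markers the interval ended below 1. The added 0.1 FPKM compresses changes of genes this low, so this alone does not exclude a 2-fold rise in their FPKM.

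**Figure D4:**
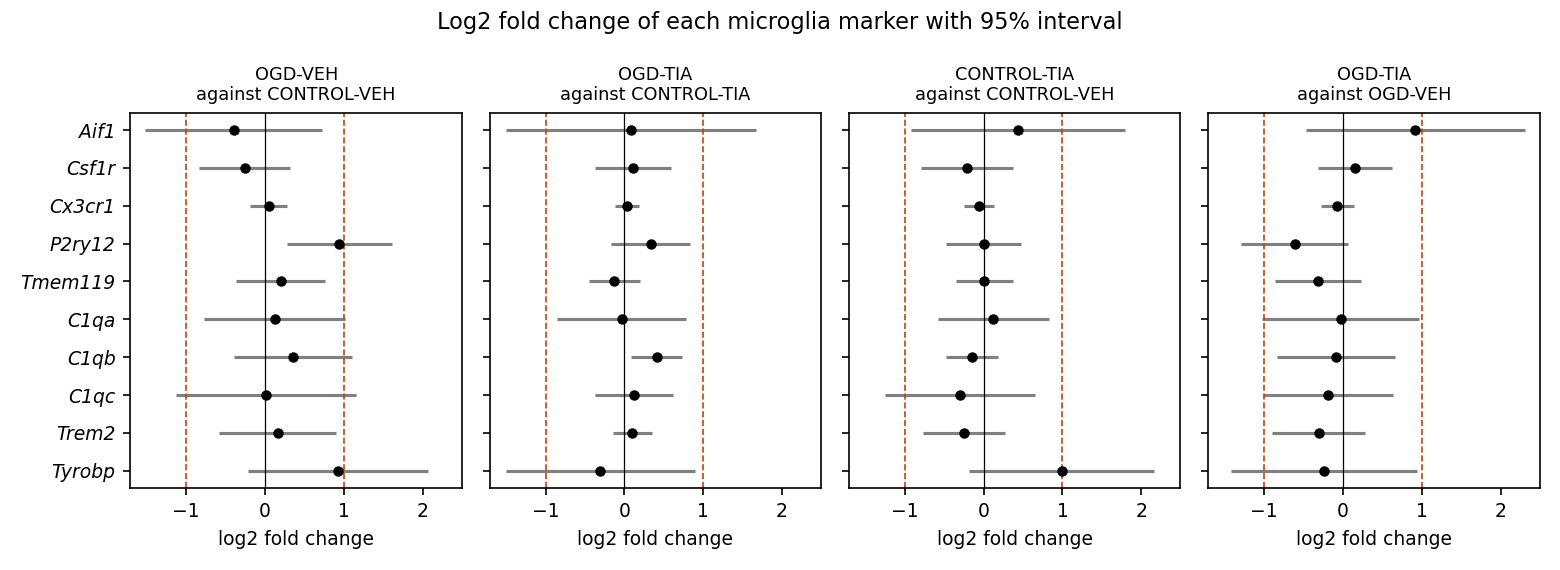
Log2 fold change of log2(FPKM + 0.1) for each microglia marker (points) with its 95% interval (grey), in the 4 comparisons of 4 with 4 cultures, with -1 and 1 as dashed lines. Only *P2ry12* between OGD-VEH and CONTROL-VEH and *C1qb* between OGD-TIA and CONTROL-TIA have intervals that leave out 0. *C1qb* was at 0 in all 4 CONTROL-TIA cultures, so its point there rests on the added 0.1 FPKM and on values of 1.0 read each. Its exact permutation p was 0.143.

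The ligands of CSF1R and CX3CR1 stood at higher FPKM than their receptors, and *Csf1* rose. *Csf1*, a growth factor made by neurons and glia, was at 2.44, 1.71, 1.83 and 2.57 FPKM in CONTROL-VEH, and OGD-VEH gave 4.00, 18.1, 12.2 and 17.1 FPKM. The groups did not overlap, and the log2 fold change was 2.35 (SE 0.45, padj 0.0340). In CONTROL-TIA *Csf1* was at 3.75, 3.38, 1.98 and 1.93 FPKM and in OGD-TIA at 5.05, 5.20, 4.04 and 10.5 FPKM. These groups did not overlap either, but the log2 fold change of 1.10 (SE 0.34) had a padj of 0.165, and the difference from OGD-VEH, -0.93 (SE 0.50), a padj of 0.551. *Csf1r* stayed between 0.009 and 0.113 FPKM in the same cultures.

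*Il34*, the neuronal ligand of CSF1R, had means of 0.921 ± 0.254 (CONTROL-VEH), 0.987 ± 0.295 (CONTROL-TIA), 0.589 ± 0.137 (OGD-VEH) and 0.564 ± 0.250 FPKM (OGD-TIA; SD, n = 4). Its log2 fold changes of -0.56 (padj 0.205) and -0.76 (padj 0.261) were not called. *Cx3cl1*, fractalkine, was at 115, 74.4, 151 and 174 FPKM in CONTROL-VEH, and OGD-VEH gave 131, 30.8, 61.5 and 16.5 FPKM. OGD-VEH culture 9 stood within the controls while the other three were below all of them, and the log2 fold change of -1.44 (SE 0.59) had a padj of 0.122. Between OGD-TIA, at 85.3 to 101 FPKM, and CONTROL-TIA, at 112 to 179 FPKM, the groups did not overlap, and the log2 fold change of -0.52 had a padj of 0.154. *Csf1* was thus the only ligand of 3 that was called.

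**Figure D5:**
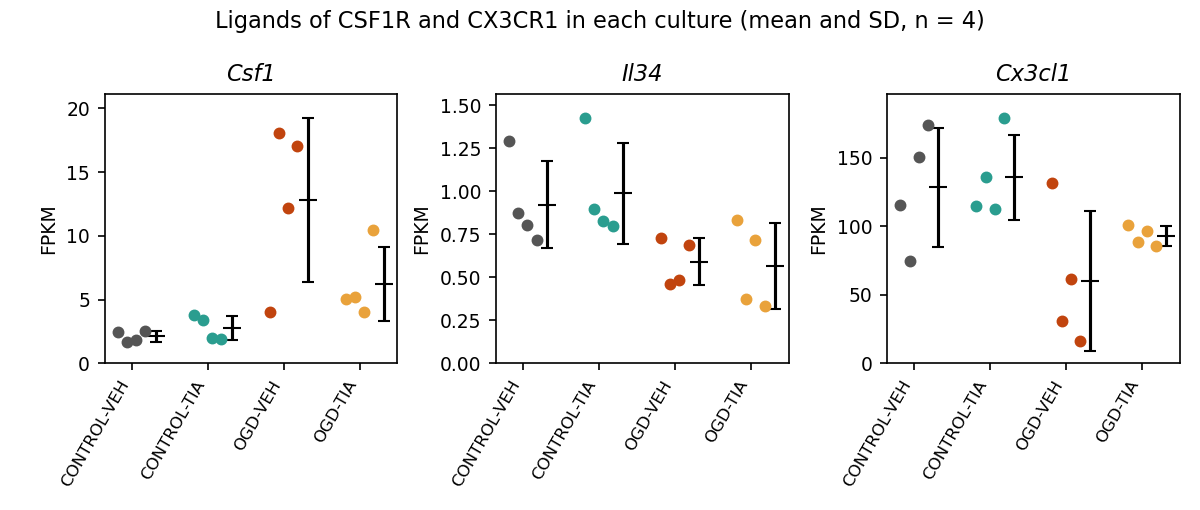
FPKM of the CSF1R ligands *Csf1* and *Il34* and the CX3CR1 ligand *Cx3cl1* in each culture (points), by group, with the mean and SD of each group (n = 4) beside them. *Csf1* in OGD-VEH ranges from 4.00 to 18.1 FPKM, above the 1.71 to 2.57 FPKM of CONTROL-VEH.

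Several genes often read as signs of microglial activation or phagocytosis rose, although the markers that define the cells were near 0. Of 25 such genes, 12 passed the filter between OGD-VEH and CONTROL-VEH, and 6 of these were called up and 0 down, beside 2.40% and 1.68% of all genes. *Spp1*, *Gpnmb* and *Ccl2* passed the filter only through OGD-VEH and so had to be higher there, which leaves 3 called of the 9 that reached 0.5 FPKM in both groups (*Cd9*, *Cd63* and *Lgals3*). The count is therefore a description of these genes and does not set the list apart. *Lgals3*, galectin-3, rose from 2.97 ± 1.65 to 51.6 ± 43.9 FPKM (SD, n = 4; log2 fold change 3.66, SE 0.76, padj 0.0367). *Ccl2*, a chemokine that draws monocytes, rose from 0.135 ± 0.125 to 6.22 ± 4.34 FPKM (4.38, SE 0.86, padj 0.0347). *Spp1*, osteopontin, rose by 2.29, *Gpnmb*, a lysosomal glycoprotein, by 1.53, and the tetraspanins *Cd9* and *Cd63* by 1.28 and 1.09 on the log2 scale. These genes are known in astrocytes, oligodendrocyte progenitors or neurons as well, and the list was not one of microglia alone. The 3 highest of the list, *Apoe*, *Cd63* and *Ctsb*, had means of 2030, 195 and 165 FPKM over the 16 cultures.

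Most genes shared by all myeloid cells were near 0 as well. Of 38 pan-myeloid genes, 29 had a mean under 0.5 FPKM over the 16 cultures, among them the leucocyte antigen *Ptprc* (0 to 0.048 FPKM) and the integrin *Itgam* (0 to 0.249 FPKM). The 3 highest were *Coro1a* at 192, *Fyb* at 29.7 and *Csf2ra* at 14.9 FPKM. In the OGD-VEH comparison, 9 of the 38 passed the filter, 1 was called up and 0 down, beside 2.40% and 1.68% of all genes. The median log2 fold change of these 9, which include *Coro1a*, *Fyb* and *Csf2ra*, was -0.58. The part of other cell types in these 9 was not tested. The gene called was *Cd68*, a lysosomal membrane protein, which was at 4.73, 1.59, 2.07 and 1.75 FPKM in CONTROL-VEH and at 9.72, 14.4, 12.4 and 11.9 FPKM with OGD (log2 fold change 2.34, SE 0.33, padj 0.0281).

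Of 15 further genes of homeostatic microglia, 6 passed the filter between OGD-VEH and CONTROL-VEH and none was called. An unadjusted p under 0.05 was found for 2 above and 1 below, beside 5729 of 16346 genes past the filter. Their 3 highest, *Cst3*, *Cd81* and *Sparc*, at 3178, 475 and 63.5 FPKM over the 16 cultures, are known in astrocytes as well. Among those held to be specific, *P2ry13* was listed at 0 in all 16 cultures, *Gpr34* and *Siglech* in 15 each and *Fcrls* in 14.

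Around TREM2 and TYROBP, 10 of 17 genes of partners and signalling passed the filter. Beside 2.40% of all genes called up and 1.68% down, 0 of the 10 were called down and 1 was called up. This was *Vav3*, a signalling protein, which went from 1.99 ± 0.404 FPKM (CONTROL-VEH) to 8.24 ± 3.79 FPKM (OGD-VEH; SD, n = 4; log2 fold change 1.87, SE 0.37, padj 0.0347). The median of the 10 was 0.33. The highest were the adaptor *Grb2*, the kinase subunit *Pik3r1* and the TREM2 ligand *Clu*, at 331, 91.8 and 83.3 FPKM over the 16 cultures, none of which is limited to microglia. *Syk*, the kinase that TYROBP engages, had a group mean of 0.606 to 0.811 FPKM.

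Of 27 further genes listed with the complement cascade, 11 passed the filter and none was called between OGD-VEH and CONTROL-VEH. The median of the 11 was -0.50. The list also holds the C1q-like genes *C1ql1*, *C1ql2* and *C1ql3* and regulators made by neurons, so its median is not one of the cascade alone. Of the 11, 4 had an unadjusted p under 0.05, all lower in OGD-VEH, beside 5729 of 16346 genes past the filter. The highest, *Sez6*, *Sez6l* and *Cfp*, had means of 225, 60.2 and 31.7 FPKM over the 16 cultures. *Sez6* and its homologue *Sez6l* encode neuronal complement regulators and *Cfp* properdin. *C3*, on which all complement pathways converge, had group means of 0.042 to 0.126 FPKM, so C1q chains and *C3* were both near the limit of detection.

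The other cell types moved between the same groups. Between OGD-VEH and CONTROL-VEH, 2.40% of all genes past the filter were called up and 1.68% down. Of 15 neuronal markers, 1 was called down (*Syt1*, -1.52) and none up. An unadjusted p under 0.05 was found for 11, all lower, beside 5729 of 16346 genes past the filter in either direction. Of 8 oligodendrocyte lineage genes past the filter, 4 were called up (*Cspg4*, *Olig1*, *Olig2* and *Sox10*, by 1.06 to 1.46), and of 10 astrocyte markers none was called, with a median of 0.73. At an unadjusted p under 0.05 by limma, 5 oligodendrocyte lineage genes were higher and 1 lower, and 4 astrocyte markers were higher and 0 lower. None of the endothelial (1 tested), mural and fibroblast (2 tested) or blood cell genes (2 tested) was called, and of the border-associated macrophage genes 0 could be tested. The summed neuronal markers ranged from 3320 to 3950 FPKM in CONTROL-VEH and from 1530 to 3000 FPKM in OGD-VEH. The summed oligodendrocyte lineage markers ranged from 186 to 223 FPKM in CONTROL-VEH and from 255 to 707 FPKM in OGD-VEH. Their part in the rise of *Csf1*, *Lgals3*, *Cd68* and the other listed genes was not tested.

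All 14 calls among the listed genes fell between OGD-VEH and CONTROL-VEH, and they rested on the filter and on which cultures were used. Without a filter, where more genes were tested, none of the 14 was called (padj 0.0560 to 0.0962). Under the other alternatives that kept all cultures, *Spp1* and *Gpnmb* were also lost with a pseudocount of 1 and with a minimum of 2 FPKM, and *Cd63*, *Cspg4* and *Sox10* were lost under 1 to 3 of them. When each of the 8 cultures was left out in turn, 13 of the 14 remained called only without OGD-VEH culture 9, and *Cd68* also without CONTROL-VEH culture 1 and OGD-VEH culture 12. Over all genes the calls in these fits ranged from 1 (without CONTROL-VEH culture 2) to 2186 (without OGD-VEH culture 9), beside 668 with all cultures. Of the OGD-VEH cultures, culture 9 was nearest to CONTROL-VEH in *Csf1* (4.00 FPKM), *Cx3cl1* (131 FPKM) and *P2ry12* (0.111 FPKM).

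The 10 genes most like the markers over the 16 cultures, among those past the filter, included none of the listed myeloid genes. The filter had already left out 29 of 38 pan-myeloid genes and 9 of 15 further genes of homeostatic microglia. It also left out all 9 genes of border-associated macrophages. The absence of myeloid genes was therefore largely set by the filter. Among 16312 other genes whose mean reached 0.5 FPKM, the highest Pearson correlations with the mean centred log2 level of the 10 markers were those of *Abl1* (0.87), *Gm16418* (0.85), *Gm10705* (0.84), *Mad2l1* (0.84), *Psmd8* (0.83), *Idh2* (0.81), *Uckl1* (0.81), *Fzd6* (0.81), *N4bp2os* (0.81) and *Nr1h2* (0.80). These are the extremes of a large number of correlations over 16 libraries and are given as a description. The mean centred level ranged from -0.372 in CONTROL-TIA culture 7 to 0.430 in OGD-VEH culture 12.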

How the data were processed

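RNA-seq of 16 cultures was used. Per the paper's methods and the labels, stranded libraries were read as 50-base single ends, mapped with STAR to GRCm38 (Ensembl 92) and quantified per isoform by eXpress. From the table's name, the deposited values are FPKM that the authors had scaled by TMM. Isoform FPKM were summed per symbol, which raises genes with short isoforms, and 74 of 135276 lines without identifier were left out. Lengths and positions came from GENCODE M21 (99.82% of isoforms matched). Reads were approximated by taking 299 bases off each length, over 13678 single-isoform genes, with TMM inside this scale.

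Values were tested as log2(FPKM + 0.1) with limma 3.58.1 in R 4.3.3 (trend, Benjamini-Hochberg over all genes tested) on the 8 cultures of a comparison, 16 for the interaction, where the mean reached 0.5 FPKM; others were read from the unfiltered fit. The procedure was tested on simulated data. Permutation tests covered 70 assignments. Markers and lists were chosen with earlier results of these data known. Named genes are all markers, the called and the 3 highest genes of each list, the ligands and the 10 most alike. DESeq2, the authors' tool, needs counts. Scripts ran on Python 3.11.15 with pandas 2.3.3, numpy 2.4.6 and scipy 1.17.1.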

Additional observations from a re-analysis of the deposited data

Results flagged for a closer look

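In 10 of 45 sets of 4 cultures (each marker, the summed FPKM and the summed reads in each group), 1 culture stood far from the other 3 by Dixon's test. Chance flags about 1 in 20 for continuous values, a rate that does not hold for values of a few reads. Where 3 cultures are listed at 0, any value in the remaining culture is flagged by construction. In 6 of the 10 flagged sets, a single culture was above 0 and the others were listed at 0. These were *Cx3cr1* in CONTROL-VEH culture 4 (0.018 FPKM) and OGD-TIA culture 16 (0.010 FPKM), *C1qb* and *Trem2* in CONTROL-VEH culture 4 (0.051 and 0.099 FPKM), *Trem2* in OGD-TIA culture 14 (0.033 FPKM) and *Tyrobp* in CONTROL-VEH culture 3 (0.146 FPKM). In 3 others a single culture of OGD-TIA was at 0 FPKM while the others were not, for *C1qb* (0.042 to 0.049 FPKM) and *C1qc* (0.047 to 0.051 FPKM) in culture 15 and *Tyrobp* (0.151 to 0.158 FPKM) in culture 14. *Tmem119* in CONTROL-TIA culture 5 was at 0.039 FPKM, against 0.020 to 0.023 FPKM in the others. In all of these sets a culture held between 0 and 2.1 reads of the gene.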

How the results depend on the processing

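The alternatives were other pseudocounts (1 and 0.01), no filter or one at 2 FPKM, scaling by median ratios, weights for array quality, a robust fit, a joint fit of all 16 cultures, isoforms weighted by length, and each culture left out. Among them, array quality weights gave 1 marker called between OGD-VEH and CONTROL-VEH, *P2ry12*, beside 1605 of 32532 genes without a filter. Leaving out 1 culture gave 0 to 1 marker there and 0 in the other comparisons and the interaction. The call of 1 marker came without OGD-VEH culture 9, beside 1994 of 32115 genes without a filter. The median log2 difference of the 10 markers was 0.397 and 0.335 with a pseudocount of 0.01 for OGD without and with TIA, and its leave-one-out range for OGD-VEH against CONTROL-VEH was 0.023 to 0.376. The fold change of *Aif1* between CONTROL-TIA and CONTROL-VEH ranged from -0.006 to 0.788 when a culture was left out. Over all 50 marker fold changes, 22 changed sign when some culture was left out and 7 under another alternative, and none of these was called. Calls over all genes between OGD-VEH and CONTROL-VEH were 36 without a filter, 1122 with isoforms weighted by length, 1390 with all cultures in one fit and 1929 with array quality weights, beside 668. With array quality weights they were 80 between OGD-TIA and CONTROL-TIA, 408 between OGD-TIA and OGD-VEH and 101 for the interaction, and with isoforms weighted by length 73 between OGD-TIA and CONTROL-TIA. Most single-marker values are worth 0 to 4 reads, which is the main limit. No paired analysis was possible because the cultures are numbered 1 to 16 across the groups and share no replicate number.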

Other observations

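*Fyb*, a leucocyte adaptor and the second highest of the pan-myeloid genes, was at 16.1 to 56.6 FPKM in 13 cultures and at 0.029, 0.144 and 0.041 FPKM in CONTROL-TIA cultures 6 and 8 and OGD-VEH culture 10. It shares 231 exonic bases on the same strand with the pseudogene *Gm7666*, which was at 45.2 to 82.6 FPKM in all cultures. How reads were divided between them was not tested. The gene was singled out after its values were seen.

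*Cd14*, a receptor for bacterial lipid, was below the filter between OGD-VEH and CONTROL-VEH. It was at 0, 0.035, 0 and 0 FPKM in CONTROL-VEH and at 0.266, 1.60, 0.626 and 1.08 FPKM in OGD-VEH, and in the fit without a filter its padj was 0.0603. *Hcst*, an adaptor related to *Tyrobp*, had a mean of 0.957 to 1.32 FPKM in CONTROL-VEH, CONTROL-TIA and OGD-VEH and of 0.235 FPKM in OGD-TIA, where 2 of 4 cultures were listed at 0. Both were singled out after their values were seen.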
